A study of Mus musculus with 4 samples.

Results

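The Hox genes were followed on all 4 arrays of fetal liver as the positional code of the embryo. A probe was counted as a member when its transcript belonged to a coding gene named Hoxa, Hoxb, Hoxc or Hoxd with a number, and the brightest probe of each gene was kept. By this rule 46 probes gave 39 genes, which are all 39 coding Hox genes of the RefSeq gene table, out of 22911 genes with a symbol on the array. They were 11 Hoxa, 10 Hoxb, 9 Hoxc and 9 Hoxd genes. The livers, labelled female, came from fetuses between 14 and 15 days post coitum, of C57BL/6J dams (8 weeks of age at the start) that ate either a control diet (CD) or a high-fat diet (HFD) during gestation. Fat gave 4.3% of the energy of the CD and 60% of that of the HFD. Each diet had 2 arrays, which the labels call biological replicates, and the number of fetuses or dams behind an array is not given in the sources used here. The p-values measure the spread between these 4 samples. The study asked which transcripts of the fetal liver differ when the dam eats an HFD.

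Hox genes encode homeodomain transcription factors, and each paralog number marks a place in the chromosomal order of its cluster. Genes at the low-number end are switched on first and toward the head, and those at the high-number end later and toward the tail, the limb buds and the urogenital tract, a rule known as colinearity. In the fetal liver, the main site of blood formation at this age, genes of the Hoxa and Hoxb clusters are known from blood stem and progenitor cells, while liver mesenchyme and neighbouring organs carry positional Hox expression of their own. Paralog numbers 1 to 3 are called anterior here, 4 to 8 central and 9 to 13 posterior, which gave 8, 15 and 16 genes.

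Across the 4 clusters, the Hox genes differed more between the arrays of the CD group than between the means of the diets, with medians of 1.60 and 0.14 on the log2 scale. The first value is between single arrays, while in the second the CD arrays are averaged. With the HFD mean set against 1 CD array, the median over 33 Hox genes was 0.96 for CD replicate 2 and -0.42 for CD replicate 1. All 9 posterior genes that were well above background on every array were lowest on CD replicate 2, and the distance between the CD arrays grew with the paralog number. The median difference between CD replicate 1 and CD replicate 2 was 0.63 for anterior, 1.01 for central and 2.45 for posterior genes (2.44 over those 9), beside -0.06 over the 18000 genes well above background on at least 1 array. At the cutoffs for a difference between HFD and CD, 0 of the 31 tested Hox genes passed. Of all 41332 probes tested, 0.293% were called higher and 0.477% lower, so 0 of 31 is near the share over all probes.

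The level of a gene is given as the log2 of its intensity minus the 75th percentile of the array, so that a level of 0 means as bright as that percentile. Where values are given in pairs, replicate 1 comes first. Levels of different genes are not set against each other, as each comes from its own probe. Orders of the arrays were counted over genes well above background on all 4. In counts of 2-fold and 4-fold differences, a dim denominator was replaced by the lowest signal well above background on its array, where that was higher, and a dim numerator was not counted. A signal well above background was found on all 4 arrays for 30 of the 39 genes and on some arrays for 7 (Hoxa13, Hoxc10, Hoxc11, Hoxc13, Hoxd1, Hoxd9 and Hoxd11). Hoxb1, which patterns a hindbrain segment, and Hoxc12 stayed near background on all 4. The median intensity was 70.2 on CD replicate 2, the dimmest array, and between 97.0 and 120.5 on the other arrays, and the share of spots well above background lay between 65.4% and 70.0%. All 8 hepatoblast markers and all 9 erythroid markers were well above background on every array, with Alb at levels of 8.14 and 9.06 in CD livers and 8.53 and 8.54 in HFD livers.

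**Figure D1:**
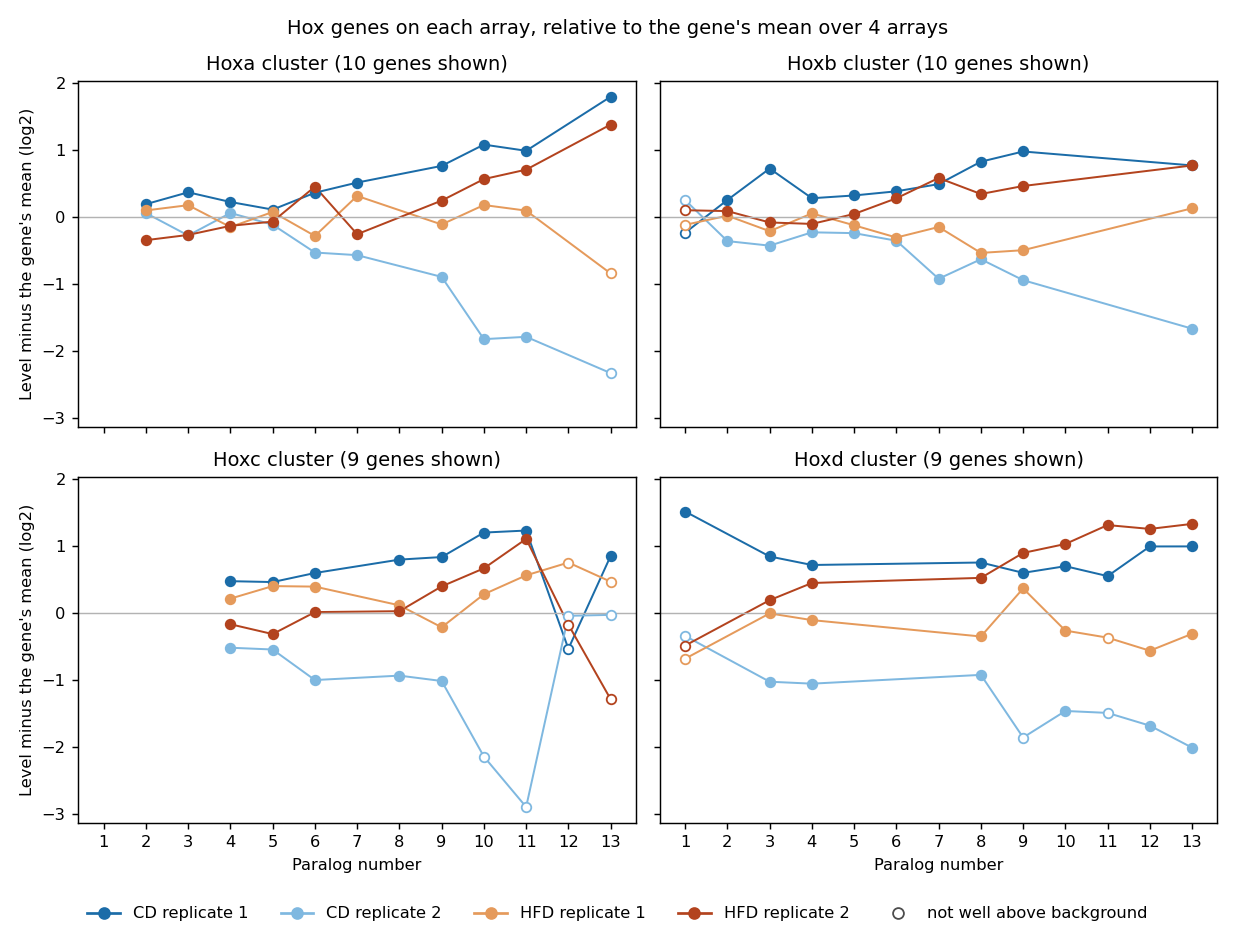
Level of 38 Hox genes on each array minus the gene's mean over the 4 arrays (log2, vertical axis) against paralog number (horizontal axis), with a panel for each cluster. Filled points were well above background on that array and open points were not. CD replicate 2 lies lowest for 27 of the 29 genes with 4 filled points, and the arrays spread apart toward the high numbers, where the median over the posterior genes is 0.91 on CD replicate 1 and -1.68 on CD replicate 2.

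In the Hoxa cluster, Hoxa2, Hoxa3, Hoxa4 and Hoxa5 differed between the CD arrays by 0.13 to 0.65. Hoxa3, needed for thymus and parathyroid, had levels of 0.64 and -0.01 on CD replicates 1 and 2 and of 0.44 and -0.002 on HFD replicates 1 and 2. Hoxa4, with the most negative difference of HFD from CD in the cluster, stood at -2.54 and -2.71 in CD livers and at -2.92 and -2.90 in HFD livers. For Hoxa4 both HFD arrays lay below both CD arrays, and the difference of -0.28 had a limma standard error of 0.17 (unadjusted p = 0.157, adjusted p = 1.00). Hoxa5, a gene of the lung and the neck vertebrae, was steadier still, with levels of -1.02 and -1.25 in CD livers and -1.06 and -1.20 in HFD livers. Hoxa2 and Hoxa6 differed between the CD arrays by 0.13 and 0.89.

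From Hoxa7 onward CD replicate 2 was the lowest array and lay more than 2-fold under CD replicate 1. Hoxa7 had levels of 1.12 and 0.04 in CD livers and 0.92 and 0.35 in HFD livers. Hoxa10, known from the lumbar spine and the uterus, had 1.36 and -1.55 in CD livers and 0.46 and 0.84 in HFD livers. Hoxa11, which acts in forearm, kidney and uterus, had -0.25 and -3.03 in CD livers and -1.15 and -0.54 in HFD livers. Both HFD arrays lay between the CD arrays for all 3 genes, and CD replicate 1 was 7.50-fold above CD replicate 2 for Hoxa10 and 6.87-fold for Hoxa11. Hoxa9, a gene of blood progenitors, was 3.16-fold higher on CD replicate 1 than on its partner. Hoxa13, which shapes the ends of the limbs and the genital tubercle, was well above background on CD replicate 1 and HFD replicate 2 only. Its levels were -3.64 and -7.77 in CD livers and -6.28 and -4.06 in HFD livers. Measured against the lowest signal well above background, Hoxa13 was at least 3.80-fold above CD replicate 2 on CD replicate 1, and at least 3.50-fold above HFD replicate 1 on HFD replicate 2.

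The starts of 3 genes are printed, chosen as a steady gene and the highest-numbered Hoxa and Hoxd genes. RefSeq promoters (build GRCm38.p6) were matched for 22 of the 39 genes, which is too few for a comparison over the clusters. The 250 bases before the annotated start are printed for Hoxa5 (chr6:52204588-52204837, minus strand), Hoxa13 (chr6:52260881-52261130, minus strand) and Hoxd13 (chr2:74667975-74668224, plus strand). Each runs 5′ to 3′ along the gene's own strand, with the GC box, GGGCGG on either strand, in capitals, where overlapping matches run together.
Hoxa5: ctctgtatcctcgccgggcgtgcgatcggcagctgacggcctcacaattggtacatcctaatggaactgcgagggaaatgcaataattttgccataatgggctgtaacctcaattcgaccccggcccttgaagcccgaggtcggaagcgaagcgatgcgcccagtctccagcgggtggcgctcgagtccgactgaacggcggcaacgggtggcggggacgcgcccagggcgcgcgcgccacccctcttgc
Hoxa13: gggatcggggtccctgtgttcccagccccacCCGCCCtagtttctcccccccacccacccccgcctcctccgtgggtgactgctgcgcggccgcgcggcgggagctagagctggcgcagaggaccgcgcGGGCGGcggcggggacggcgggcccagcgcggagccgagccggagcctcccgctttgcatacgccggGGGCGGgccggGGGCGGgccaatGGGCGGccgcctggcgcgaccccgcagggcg
Hoxd13: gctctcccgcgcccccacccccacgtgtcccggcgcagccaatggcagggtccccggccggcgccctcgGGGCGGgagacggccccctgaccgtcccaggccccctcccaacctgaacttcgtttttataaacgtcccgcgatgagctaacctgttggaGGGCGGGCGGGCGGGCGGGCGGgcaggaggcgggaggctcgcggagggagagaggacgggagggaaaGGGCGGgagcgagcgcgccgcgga
Hoxa13 held 5 matches, Hoxd13 held 7 and Hoxa5 held 0. At least 1 was held by 10 of the 24 promoters listed for Hox genes (41.7%) and by 32.7% of all 32851 promoters of the table. Among the other Hox promoters, Hoxa11, Hoxd10 and Hoxd12 held 0 and Hoxa6 held 5. The stretches held 28 CpG in Hoxa5, 35 in Hoxa13 and 31 in Hoxd13, against a median of 12.5 over Hox promoters and 6 over all promoters. The matches are a description of the letters and were not tested for a part in the levels.

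The Hoxb cluster had the same gradation. Hoxb2, a hindbrain gene, stood at 0.35 and -0.26 in CD livers and 0.12 and 0.19 in HFD livers. Hoxb4, known for its part in the self-renewal of blood stem cells, had levels of 1.08 and 0.58 in CD livers and 0.86 and 0.70 in HFD livers. Hoxb3, with the most negative difference of the cluster, had -2.32 and -3.47 in CD livers and -3.25 and -3.12 in HFD livers. For these 3 genes both HFD arrays lay between the CD arrays, and the difference of -0.29 for Hoxb3 was smaller than its limma standard error of 0.42. Hoxb5 and Hoxb6 differed between the CD arrays by 0.56 and 0.74, and Hoxb8 and Hoxb9 by 1.46 and 1.92. Hoxb7 had levels of 0.68 and -0.73 in CD livers and 0.04 and 0.78 in HFD livers. Hoxb13, at the far end of the cluster and known from the tail and the prostate, had -1.42 and -3.86 in CD livers and -2.06 and -1.42 in HFD livers. CD replicate 2 was thus the lowest array for Hoxb13, 5.42-fold under CD replicate 1, while HFD replicate 2 and CD replicate 1 were level.

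Of the Hoxc genes, which start at number 4 in this cluster, Hoxc4 had levels of 0.72 and -0.28 in CD livers and 0.46 and 0.07 in HFD livers. Hoxc6, a gene of the forelimb and thoracic region, had 0.72 and -0.88 in CD livers and 0.52 and 0.14 in HFD livers. Hoxc9, which patterns the thoracic spinal cord, had -0.00039 and -1.85 in CD livers and -1.05 and -0.44 in HFD livers. All 3 had both HFD arrays between the CD arrays, as did Hoxc5 and Hoxc8. Hoxc10 and Hoxc11, genes of the hindlimb and lumbar region, were well above background on every array but CD replicate 2. Hoxc11 had levels of -3.45 and -7.58 in CD livers and -4.12 and -3.58 in HFD livers. Against the lowest signal well above background, CD replicate 1 was at least 9.82-fold above CD replicate 2 for Hoxc10 and at least 4.33-fold for Hoxc11. Hoxc13, a gene of hair and nails, was well above background on CD replicate 1 only, at a level of -5.35.

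The Hoxd cluster differed between the CD arrays along its whole length. Hoxd3 had levels of -2.83 and -4.70 in CD livers and -3.68 and -3.48 in HFD livers. Hoxd4 had -0.52 and -2.30 in CD livers and -1.35 and -0.79 in HFD livers. Hoxd8 had 0.58 and -1.10 in CD livers and -0.53 and 0.35 in HFD livers. In these 3 genes CD replicate 1 was the highest and CD replicate 2 the lowest, and HFD replicate 2 was above HFD replicate 1. Hoxd9 had -3.22 and -5.69 in CD livers and -3.46 and -2.93 in HFD livers, and CD replicate 1 was at least 5.07-fold above CD replicate 2, where it was not well above background. Hoxd13, which forms the digits and the genital tubercle, had -1.33 and -4.34 in CD livers and -2.64 and -0.99 in HFD livers. HFD replicate 2 was the highest array for Hoxd13, 3.12-fold above HFD replicate 1, and CD replicate 1 was 8.04-fold above CD replicate 2. The same order, HFD replicate 2, CD replicate 1, HFD replicate 1 and CD replicate 2 from high to low, held for Hoxd10, a hindlimb gene, and for Hoxd12. Hoxd11, which acts with Hoxa11 in forearm and kidney, was well above background on CD replicate 1 and HFD replicate 2 only, at levels of -5.68 and -4.92. Hoxd1, at the other end of the cluster, was well above background on CD replicate 1 only, at a level of -5.88.

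Counted over the clusters, CD replicate 1 was at least 2-fold above CD replicate 2 for 23 of 39 Hox genes, beside 4.71% of the 18000 genes. These were 2 of 8 anterior, 8 of 15 central and 13 of 16 posterior genes. A 4-fold difference was reached by 9 genes, all of them posterior, beside 0.328% of all genes. The reverse difference of at least 2-fold was found for 0 Hox genes. It was uncommon over all 18000 genes too, as the 5th percentile of their CD difference was -0.72. Of the 30 Hox genes well above background on all 4 arrays, 28 were lowest on CD replicate 2, beside 32.1% of the 16595 such genes, and the exceptions were Hoxa2 and Hoxa4. Both HFD arrays lay between the CD arrays, with CD replicate 1 the highest, for 23 of the 30, beside 16.9% of such genes.

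**Figure D2:**
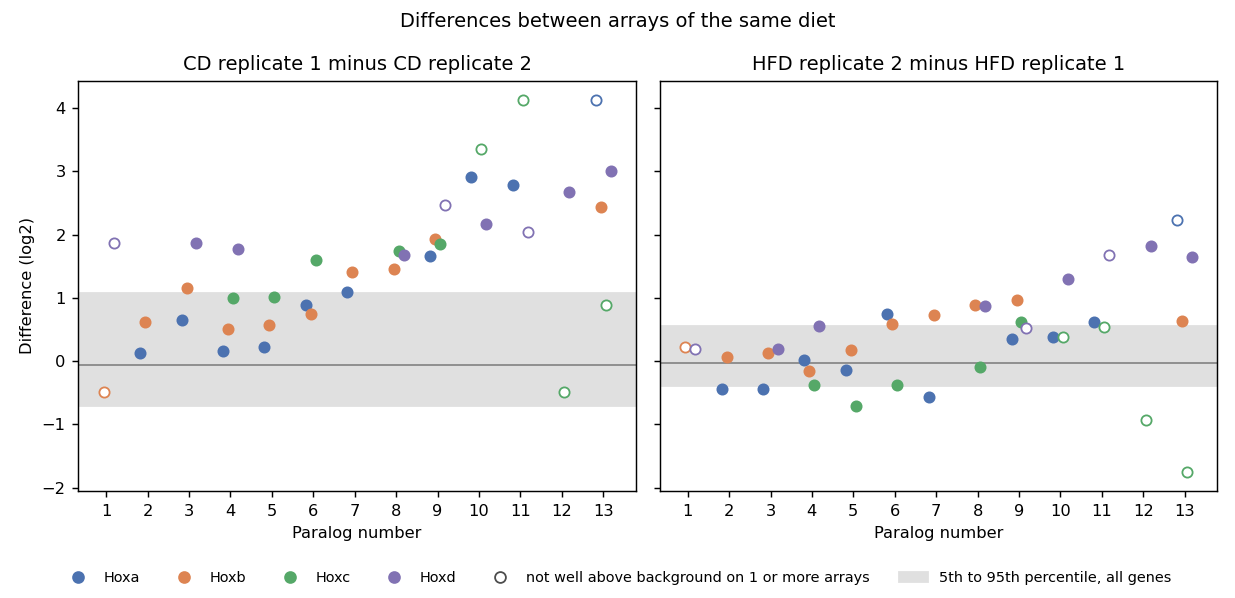
Difference between the CD arrays (left) and between the HFD arrays (right) for 38 Hox genes (log2, vertical axis) against paralog number (horizontal axis), coloured by cluster. The grey band spans the 5th to 95th percentile of all 18000 genes, -0.72 to 1.08 on the left and -0.39 to 0.56 on the right, with their median as a line. Open points were not well above background on 1 or more arrays. The CD difference climbs from a median of 0.63 for numbers 1 to 3 to 2.45 for numbers 9 to 13.

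The difference between the CD arrays was set against the paralog number and against the level. Over the 30 Hox genes well above background on all 4 arrays, the Spearman correlation of the CD difference with the paralog number was 0.79, and with the mean level -0.25. Over all 39 genes it was 0.63. Among the 30 genes it was 0.85 over 10 Hoxa, 0.82 over 9 Hoxb and 0.77 over 6 Hoxd genes. The 5 Hoxc genes well above background on all 4 arrays gave 1.00, which rests on few genes. All 9 Hoxc genes, with the dim ones included, gave -0.05. These correlations are across genes of the same arrays, which share RNA, labelling and scan and are not independent. By paralog number, the median CD difference was 0.37 for number 2, 0.75 for number 4 and 1.25 for number 7.

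The shares by level were as follows. Among the 2600 genes with a mean level between -4 and -2, a 2-fold excess on CD replicate 1 was found for 9.15%, and a 4-fold excess for 0.962%. Of the 7 posterior Hox genes in that range, 7 reached 2-fold and 6 reached 4-fold. Among the 3271 genes between -2 and 0, the 2-fold excess was found for 6.91% of genes, for 4 of 9 Hox genes numbered 1 to 8 and for 3 of 3 posterior genes. For the 2650 genes under -4 it was 6.08%, and 2 of 4 posterior genes reached it. With normexp background correction, which adds an offset and so narrows the differences of dim probes, the posterior median became 1.02 and that of the genes numbered 1 to 8 became 0.56, from 0.99.

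The HFD arrays also differed from each other in posterior genes, by less than the CD arrays did. HFD replicate 2 was above HFD replicate 1 for all 9 posterior genes well above background on every array, beside 41.7% of the 16595 such genes. The median difference was 0.64 over those 9 genes, 0.02 over the 21 such genes numbered 1 to 8 and -0.03 over all 18000 genes. At least 2-fold was reached by 4 Hox genes, Hoxa13, Hoxd10, Hoxd12 and Hoxd13, beside 1.1% of all genes. All 6 such Hoxd genes were higher on HFD replicate 2, from 0.20 for Hoxd3 to 1.82 for Hoxd12. Of the 9 such Hoxb genes 8 were higher there, with Hoxb4 the exception. In the Hoxc cluster, Hoxc4, Hoxc5, Hoxc6 and Hoxc8 were lower on HFD replicate 2 than on HFD replicate 1, and Hoxc9, Hoxc10 and Hoxc11 were higher, by 0.61, 0.39 and 0.54.

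With the diets compared by limma over all probes, 31 of the 39 Hox genes were tested. Of the rest, Hoxa13, Hoxb1, Hoxc12, Hoxd1 and Hoxd11 lay under the 20th percentile on at least 1 array. Hoxd10, Hoxd12 and Hoxd13 were bright enough, but their coefficient of variation was over 50% in both groups, so that the filter removed members because their replicates disagreed. At the cutoffs of 2-fold and an unadjusted p of 0.05, 0 Hox genes were called higher in the HFD group, beside 0.293% of the 41332 probes tested, and 0 were called lower, beside 0.477%. No Hox gene reached an unadjusted p of 0.05 by limma (smallest 0.157), which 3.35% of probes did, and the adjusted p was 1.00 throughout. By the methods' t-test 0 Hox genes passed the cutoffs. Without the filter on variation, the unadjusted limma p was 0.420 for Hoxd10, 0.561 for Hoxd12 and 0.426 for Hoxd13. The smallest p that exact permutation allows for so few arrays is 0.333.

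The largest positive difference of HFD from CD was that of Hoxc11, with a mean level of -5.52 ± 2.92 (SD, n = 2) for CD and -3.85 ± 0.38 (SD, n = 2) for HFD. The difference of 1.67 had a limma standard error of 1.39 and rested on CD replicate 2, where Hoxc11 was not well above background. With normexp it was 0.22, and that of Hoxa10 was 0.62. For Hoxd9 the difference was 1.26 (limma standard error 0.85), for Hoxb13 it was 0.90 (0.85) and for Hoxa11 it was 0.80 (0.96). Each of these differences lay within the distance between the CD arrays. Hoxd13, which was not tested, stood at -2.83 ± 2.13 (SD, n = 2) for CD and -1.81 ± 1.16 (SD, n = 2) for HFD. Hoxa5 was at -1.13 ± 0.16 (SD, n = 2) for CD and -1.13 ± 0.10 (SD, n = 2) for HFD. A missed cutoff does not show that the diets were alike, since the standard errors of the posterior genes admit differences of over 2-fold.

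The median difference of HFD from CD was 0.14 over the 33 Hox genes detected on both CD or both HFD arrays, and 0.04 over all 18000 genes. By region it was -0.009 for anterior, 0.06 for central and 0.78 for posterior genes, which became 0.28 with normexp, and the median of 0.69 over Hoxd genes became 0.20. The posterior value rested on CD replicate 2, since leaving out CD replicate 1 gave a median of 2.16, and leaving out CD replicate 2 gave -0.62. Without CD replicate 1, 11 Hox genes passed the cutoffs as higher in the HFD group (Hoxa10, Hoxa11, Hoxb13, Hoxc6, Hoxc8, Hoxc9, Hoxc10, Hoxc11, Hoxd3, Hoxd4 and Hoxd9), beside 2.04% of the probes, and without CD replicate 2 none did. Of the 30 Hox genes well above background on all 4 arrays, 0 had both HFD arrays above both CD arrays, beside 23.4% of such genes. Hoxa4 had them below both, beside 9.56% of such genes.

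**Figure D3:**
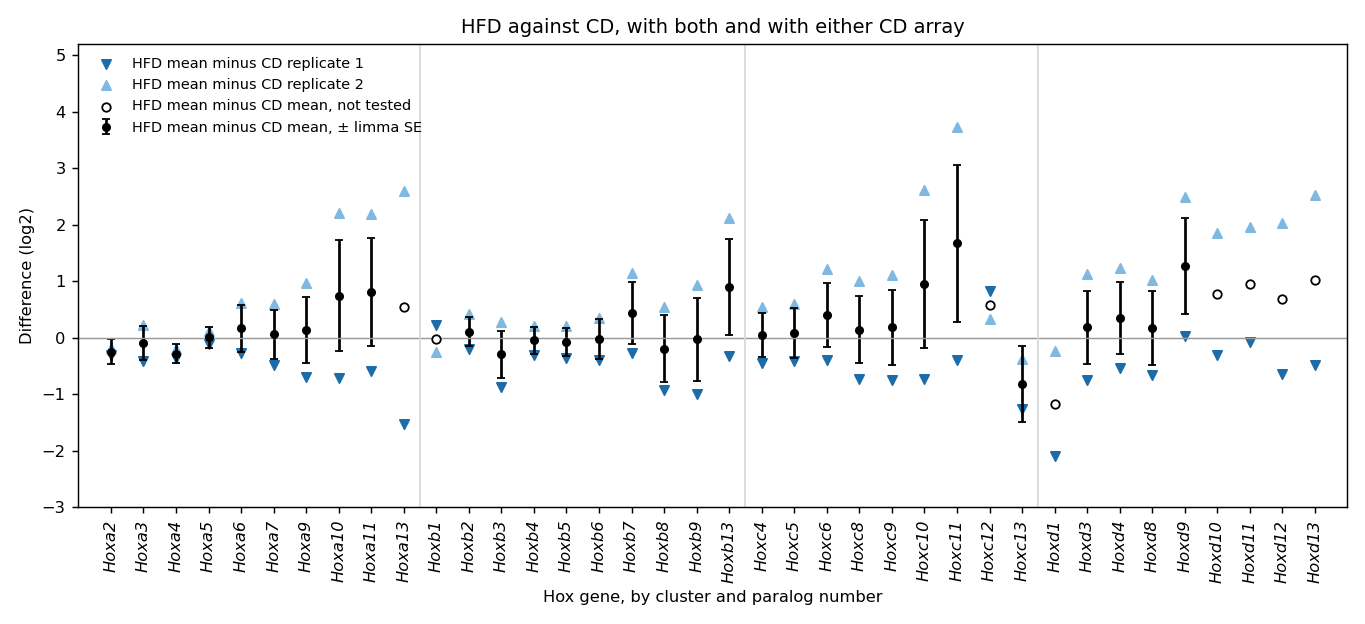
Difference of HFD from CD for 38 of the 39 Hox genes (log2, vertical axis), by cluster and paralog number. Black points are the difference of the group means, with the limma standard error as bars for the 30 of them that were tested, and triangles set the HFD mean against either CD array alone. For most posterior genes the triangles fall on opposite sides of 0, as for Hoxa11, at 2.19 against CD replicate 2 and below 0 against CD replicate 1.

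Cofactors and regulators of Hox genes had smaller differences between the CD arrays than the median of 2.45 for posterior Hox genes. The TALE homeodomain proteins Meis, Pbx and Pknox bind DNA beside Hox proteins, and all 9 of their genes were detected on every array. For these, 0 of 9 passed the cutoffs in either direction, and the median difference between the CD arrays was 0.35. Meis1, a partner of posterior Hox proteins, had levels of 3.83 and 2.996 in CD livers and 3.40 and 3.44 in HFD livers. Meis2 differed between the CD arrays by 1.13, and Pbx2 by -0.15. The regulators, 27 genes of the Polycomb and trithorax groups, retinoic acid signalling and the Cdx family, gave 0 called in either direction among 25 tested, with a median CD difference of 0.24. Cdx1, a caudal activator of Hox genes, was lowest on CD replicate 2, with -1.37 and -2.69 in CD livers and -1.76 and -1.31 in HFD livers. Of the Polycomb genes, Ezh2 (-0.08 between the CD arrays) and Eed (-0.14) were not lowest there, while Ring1 (0.56) and Phc1 (0.52) were. Among genes well above background on all 4 arrays, 13 of 24 regulators and 5 of 9 TALE genes were lowest on CD replicate 2. The share over all such genes was 32.1%. Kmt2a had no probe, and Cdx4 was not detected.

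Over 22 genes next to the Hox clusters on the chromosome, the median CD difference was -0.07. Of the 21 well above background on all arrays, 7 were lowest on CD replicate 2. Atp5g3, Mtx2 and Atf2, neighbours of Hoxd, differed between the CD arrays by -0.19, -0.30 and 0.18. Evx1, an even-skipped homeobox gene that lies beyond Hoxa13, was an exception, with levels of -2.40 and -3.93 in CD livers and -5.14 and -2.67 in HFD livers. Evx2, in the corresponding place beside Hoxd13, was at -4.54 and -4.49 in CD livers and -4.59 and -4.32 in HFD livers.

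Several markers of tissues that carry posterior Hox expression differed between the CD arrays in the same direction as the Hox genes. Markers of other lists, given further below, did so too. Of 14 kidney and mesonephros markers, 6 were at least 2-fold higher on CD replicate 1, beside 4.71% of the 18000 genes. Lowest on CD replicate 2 were 8 of the 12 well above background on all arrays, beside 32.1% of all such genes. Their median relative level was 0.08 and -0.81 in CD livers and -0.12 and 0.56 in HFD livers, and the log2 of their summed level ranged from 3.04 to 3.61 for CD and from 3.55 to 3.80 for HFD. Of these, the kidney gene Foxd1 had levels of -3.27 and -5.03 in CD livers and -3.78 and -2.33 in HFD livers. The kidney genes Pax2 and Aqp2 had the opposite CD order, with Pax2 at -2.20 and -1.001 in CD livers and -2.47 and -1.61 in HFD livers, and Aqp2 at 0.88 and 1.33 in CD livers and 1.11 and 1.46 in HFD livers. Of 11 markers of limb and body wall mesenchyme, 6 were lowest on CD replicate 2 and 10 were higher on CD replicate 1 than there, beside 43.7% of all genes on the 4 arrays, with a log2 summed level of 2.60 to 4.30 for CD and 3.24 to 3.70 for HFD. Pitx1, a hindlimb gene, had 3.79 and 1.45 in CD livers and 3.22 and 2.35 in HFD livers. No marker of either list was undetected. Of the gonad and adrenal markers, 5 of the 8 well above background on all arrays were lowest on CD replicate 2, beside that 32.1%. Foxl2, Hsd3b1 and Gata4 had the opposite CD order, with differences of -0.93, -0.58 and -0.35. The log2 of the summed level of the list was 5.13 and 5.71 in CD livers and 5.29 and 5.55 in HFD livers. By that sum the CD arrays stood in the reverse order to that of most Hox genes. Nr5a1 and Cyp11a1 passed the cutoffs as higher in the HFD group (log2 differences 1.20 and 1.87).

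Liver and blood markers ran the other way between the CD arrays. All 8 hepatoblast and all 9 erythroid markers had their higher CD level on replicate 2, with median differences of -0.44 and -0.49. Of all genes on the 4 arrays, 43.7% were higher on CD replicate 1. The median CD difference was -0.13 over the 9479 genes with a mean level above 0, where all of these markers lay. The 10 markers of blood stem and progenitor cells had a median of -0.06. The part of other tissues in the Hox levels was not tested, and in bulk RNA fewer cells of a type and less RNA per cell cannot be told apart. Of the other lists, markers of gut and pancreas had a median CD difference of 0.59 and those of spinal cord and neural crest 0.56, with Mnx1 and Tlx3 not detected. Among those well above background on all arrays, 7 of 7 gut and 6 of 7 spinal cord markers were higher on CD replicate 1. Head homeobox genes, which lie outside the Hox code, had a median CD difference of 0.41, and 0 of the 7 well above background on all arrays were lowest on CD replicate 2. Nkx2-1 of that list, Lhx5 of the spinal cord list and Psg17 of the trophoblast list passed the cutoffs as lower in the HFD group. In that group each was not well above background on 1 or both arrays. Of the decidua and uterus list 0 genes passed, and the median CD difference over its 4 detected genes was 1.03. Hand2 (1.19), Esr1 (1.13) and Des (0.92) were lowest on CD replicate 2, and Prl8a2 (-0.91) was not. Of the 7 trophoblast markers, Tpbpa, Prl3b1, Psg17 and Prl8a9 were at least 2-fold higher on CD replicate 2 than on the other CD array. The remaining 3 were higher on CD replicate 1, Gcm1 by 1.37, Hand1 by 0.62 and Ascl2 by 0.30. The 5th and 95th percentiles of the CD difference over all 18000 genes were -0.72 and 1.08.

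**Figure D4:**
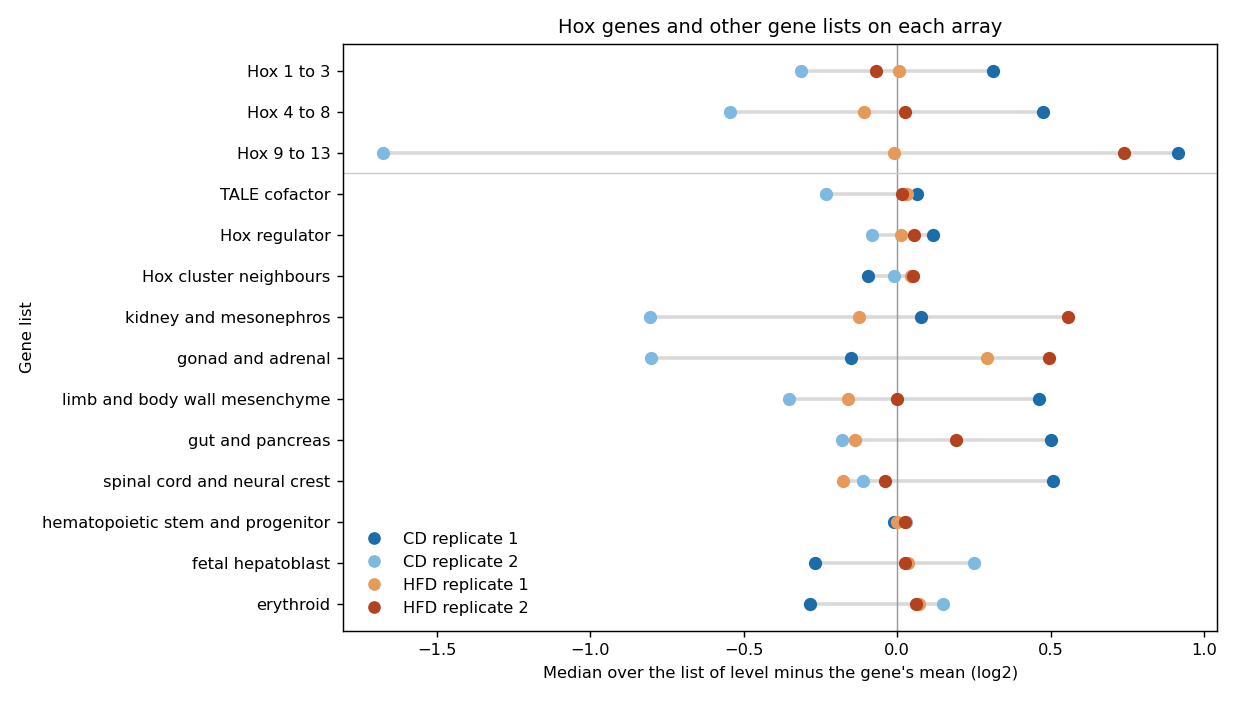
Median over each gene list of the level minus the gene's mean over the 4 arrays (log2, horizontal axis), with a point for each array and a row for each Hox class and for 11 of the lists (the trophoblast, decidua and head homeobox lists are not drawn). The posterior Hox genes span from -1.68 on CD replicate 2 to 0.91 on CD replicate 1, while the Hox cluster neighbours lie between -0.09 and 0.05.

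For 7 Hox genes a further probe was on the array. The CD difference of the second probe was 2.62 for Hoxa10 (2.91 for the brightest), 1.81 for Hoxb8 (1.46) and 1.57 for Hoxd8 (1.68). It was smaller for Hoxa3, at 0.41 (0.65). For Hoxb9 (1.92), the second probe was not well above background on CD replicate 2, and CD replicate 1 was at least 1.72-fold above it. The probes disagreed for Hoxa9, at 0.52 beside 1.66, and for Hoxb3, at 0.06 beside 1.15.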

How the data were processed

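Fetal livers were taken at 14.5 dpc, and groups and replicate numbers come from the sample labels. The authors hybridised Cy3-labeled cRNA to Agilent arrays and, per the file headers, read them with Feature Extraction 11.0.1.1, which subtracted background and removed spatial trends. The deposited intensity of each spot was not scaled between arrays. Flags deposited beside it are scores (0 or 1). A further deposited table held normalized signal of 41471 probes and was, array by array, the intensity over 1 constant (CD 1068 and 702, HFD 967 and 906). No per-sample column of the files was left unmapped.

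Spots with an outlier flag (39 to 58 per array) were left out, spots of a probe were averaged, and the 75th percentile of each array was subtracted from the log2 intensity. As in the study's methods, probes that lay under the 20th percentile of an array (14980 of 56596) or with a CV over 50% in both groups (284) were left out (the methods name log values for this CV, and the linear scale was used here), and 41332 were tested with limma 3.58.1 (R 4.3.3; lmFit, eBayes, no covariates). Tables were made with pandas 2.3.3 and numpy 2.4.6 in Python 3.11.15 and drawn with matplotlib 3.10.9. On simulated data of 41332 probes, 52 of 100 probes changed by a log2 of 1 and 100 of 100 changed by a log2 of 2 were recovered, with 0 false calls. A log2 of 1 is the 2-fold cutoff itself, which limits recovery there. Every simulated probe had the same variance, so these counts do not measure the recovery of changes in the more variable posterior Hox genes. Probes were named through RefSeq transcripts (GRCm38.p6). The array was designed on another build, so no probe coordinates are given.

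Alternatives were quantile normalization, normexp with an offset of 50 (on median spot brightness, mean brightness being absent from the columns used), the deposited table, other filters, all probes of a gene, 1 probe per gene, the methods' t-test, the replicate block and leaving out each array. There was 1 slide and 1 scan. All 39 Hox genes entered the counts and medians, and 1 of them is not reported here. Values on every array were given for the 3 genes per cluster with the highest mean level, the largest positive and negative differences, the lowest and highest paralog numbers well above background on all arrays, and, chosen after the values were seen, Hoxa5, Hoxa13, Evx1, Evx2, Cdx1, Foxd1, Pax2, Aqp2 and Meis1. Of other lists, the rule took genes past the cutoffs and the 3 brightest, which are named only where a result turns on them, and the rest were chosen after their values were seen. The members, the 14 lists and the tests were chosen with earlier results of these data known.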

Additional observations from a re-analysis of the deposited data

How the results depend on the processing

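Which CD array was used decided the comparison of the diets. With each array left out in turn, 0 to 11 Hox genes passed the cutoffs as higher in the HFD group and 0 to 1 as lower, the latter being Hoxc13 without HFD replicate 1, beside 1.05% of the probes tested. In the same way the median difference ranged from -0.42 to 0.96 over all Hox genes, from -0.39 to 0.46 for Hoxa, from -0.45 to 1.11 for Hoxc, from -0.37 to 0.30 for anterior, from -0.40 to 0.59 for central, from -0.10 to 0.34 for TALE cofactor and from -0.091 to 0.13 for Hox regulator genes. The medians of Hoxb (-0.36 to 0.41), Hoxd (-0.55 to 1.85) and posterior genes (-0.62 to 2.16) changed sign but moved by less than their replicate SD. With 1 array left in a group, that array is assumed to vary like those of the other group. Replicate numbers were not found to pair the samples (correlation of same-numbered deviations -0.10), and with the replicate block 1 Hox gene, Hoxd9, passed as higher, beside 0.428% of probes. Quantile normalization, the deposited table, the mean over probes and every other filter left the counts at 0. Among alternatives chosen after seeing the data, normexp brought the median difference between the CD arrays to 1.02 for posterior genes, and the other 4 left it between 2.30 and 2.46. Dim posterior genes on CD replicate 2 limit these values, since their signal there was near background.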
